A study of Mus musculus with 12 samples.

Results

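Mouse islets from 4 genotypes were profiled on 1-colour Agilent arrays, and 52 genes of the mitotic cell cycle are described here out of the 17306 genes that could be named on the array. The 52 genes were listed by name in 4 roles: 13 regulators of the G1/S step, 12 genes of DNA replication, 21 genes of G2 and mitosis and 6 inhibitors of cyclin-dependent kinases (CDKs). They have 72 probes, found through the RefSeq accession that the scanner files give each probe, and the probe with the highest mean signal stands for its gene. The probe of Ccnd1 carries an accession that RefSeq does not pair with a symbol, and was named through the study's own table. The genotypes were wild type (WT), mice without the PPARγ2 isoform of the nuclear receptor PPARγ (PPARγ2KO), leptin-deficient obese ob/ob mice, and POKO mice, which are ob/ob mice that also lack PPARγ2, all on a mixed C57BL/6 x Sv129 background. Both genetic changes are present in every tissue, so that no difference in islets can be placed in the islet cell itself. The mice were females on chow, 4 weeks old by the labels and 5 weeks old by the methods. Islets were freed with collagenase, picked by hand and cultured overnight, and each of the 3 arrays of a genotype held a pool from 3 to 4 mice. Whether the pools shared a litter or a culture is not given in the sources used here, and the p-values measure the spread between these arrays, which may be technical.

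Each array had 43379 spots of 41174 probes after the controls were left out, and 54.3% to 64.9% of the spots were well above background. The 4 arrays of a slide held 1 array of each genotype, always at the same place on the slide, so that place and genotype cannot be told apart. The Pparg probe read 8.85 to 8.98 on the log2 scale in WT, 8.54 to 9.77 in ob/ob, 6.60 to 7.44 in PPARγ2KO and 6.41 to 7.14 in POKO islets, without overlap between the arrays with and without PPARγ2. Whether it lies in the deleted part is not given, and the Lep probe was above background on 0 of 12 arrays and checks nothing. Insulin, glucagon, somatostatin and pancreatic polypeptide genes were well above background on all 12 arrays, and so were all 8 listed genes of the exocrine acinar cell. The summed signal of these 8 genes was 1980700 to 2353700 by array, beside 627910 to 916540 for 7 beta cell genes that include insulin. Acinar RNA was therefore a large part of the signal on every array. Array PPARγ2KO 2 stood apart from its group in lymphocyte genes, with a summed signal of 8 T cell genes of 1462.5 against 271 at the lowest array of that genotype, and of 6 B cell genes of 2814 against 62.9.

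A cell passes from G1 into S phase when cyclin D with CDK4 or CDK6, and then cyclin E with CDK2, release the E2F transcription factors from the retinoblastoma protein. E2F switches on the enzymes that make nucleotides and the helicase that opens replication origins. Later, cyclin A and cyclin B with CDK1 drive the cell into mitosis, in which kinases, motor proteins and a checkpoint align the chromosomes before the anaphase-promoting complex lets them part. The CDK inhibitors of the Cip/Kip family (p21, p27 and p57) and of the INK4 family (p15, p16 and p18) hold these kinases back. Beta cells divide in young mice and rarely in adults, and the growth of the islet in obesity rests largely on their division.

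Genes that act together in the cycle share short motifs near their starts, and the promoters (250 bases before to 50 bases after the start) of 7 members with a changed signal are printed to show them. The cell cycle genes homology region (CHR, letters TTTGAA) recruits complexes that switch genes on in G2 and mitosis, and the CCAAT box binds NF-Y. The E2F site was searched as TTCCCGC and, where the middle letters differ, as TTGGCGC. Its other forms searched were TTCGCGC and, with other middle letters, TTGCCGC, and all motifs were searched on both strands. Capitals mark matches to any of these motifs, also as their reverse complement, and all sequences run 5′ to 3′ in the direction of the gene, from RefSeq with build GRCm38.p6.
Mki67, chr7:135716330-135716629, minus strand: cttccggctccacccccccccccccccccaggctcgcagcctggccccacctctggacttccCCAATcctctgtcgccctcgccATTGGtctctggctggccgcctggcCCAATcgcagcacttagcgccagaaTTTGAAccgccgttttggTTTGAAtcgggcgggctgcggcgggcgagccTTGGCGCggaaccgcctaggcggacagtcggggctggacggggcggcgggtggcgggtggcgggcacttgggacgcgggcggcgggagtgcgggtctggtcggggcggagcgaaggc
Bub1b, chr2:118597961-118598260, plus strand: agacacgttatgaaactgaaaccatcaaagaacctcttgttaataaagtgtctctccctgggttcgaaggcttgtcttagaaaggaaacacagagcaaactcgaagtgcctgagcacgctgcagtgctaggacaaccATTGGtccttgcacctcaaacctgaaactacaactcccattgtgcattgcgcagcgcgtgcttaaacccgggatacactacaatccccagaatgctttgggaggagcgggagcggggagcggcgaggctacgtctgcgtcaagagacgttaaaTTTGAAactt
Plk1, chr7:122159185-122159484, plus strand: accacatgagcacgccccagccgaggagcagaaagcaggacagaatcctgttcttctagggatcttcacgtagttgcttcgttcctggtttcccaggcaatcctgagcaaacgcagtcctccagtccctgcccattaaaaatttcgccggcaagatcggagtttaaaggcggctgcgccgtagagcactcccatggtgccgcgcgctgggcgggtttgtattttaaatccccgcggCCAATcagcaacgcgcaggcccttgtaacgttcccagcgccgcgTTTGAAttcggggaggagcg
Cdc20, chr4:118437294-118437593, minus strand: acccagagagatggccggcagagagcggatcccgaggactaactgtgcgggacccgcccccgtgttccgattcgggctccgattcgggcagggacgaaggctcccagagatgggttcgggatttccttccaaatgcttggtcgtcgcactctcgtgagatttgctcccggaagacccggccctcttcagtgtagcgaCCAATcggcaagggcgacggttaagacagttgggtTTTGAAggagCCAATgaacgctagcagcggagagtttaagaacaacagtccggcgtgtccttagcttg
Rrm2, chr12:24708004-24708303, plus strand: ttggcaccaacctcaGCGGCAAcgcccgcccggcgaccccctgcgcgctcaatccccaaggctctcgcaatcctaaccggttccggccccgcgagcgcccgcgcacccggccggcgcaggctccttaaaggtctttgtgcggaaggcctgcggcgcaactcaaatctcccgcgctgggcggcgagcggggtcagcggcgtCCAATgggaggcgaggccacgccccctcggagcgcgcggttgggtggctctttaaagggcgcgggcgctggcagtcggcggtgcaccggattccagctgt
Cdc25a, chr9:109875329-109875628, plus strand: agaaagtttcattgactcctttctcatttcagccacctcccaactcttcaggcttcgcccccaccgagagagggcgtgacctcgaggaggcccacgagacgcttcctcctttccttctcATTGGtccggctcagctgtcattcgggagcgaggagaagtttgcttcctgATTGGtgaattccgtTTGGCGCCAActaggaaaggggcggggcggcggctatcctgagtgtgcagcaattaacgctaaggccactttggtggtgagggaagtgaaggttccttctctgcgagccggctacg
Cdk6, chr5:3343643-3343942, plus strand: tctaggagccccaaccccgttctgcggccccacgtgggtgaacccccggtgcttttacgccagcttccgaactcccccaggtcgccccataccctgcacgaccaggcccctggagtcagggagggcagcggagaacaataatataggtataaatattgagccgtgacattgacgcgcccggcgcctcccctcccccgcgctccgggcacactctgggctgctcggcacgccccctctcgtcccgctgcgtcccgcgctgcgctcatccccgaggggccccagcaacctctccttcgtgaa

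The 4 mitotic promoters each held TTTGAA and CCAAT, with 2 copies of TTTGAA in Mki67, the first at position -116 from its start, and 1 copy in Bub1b, Plk1 and Cdc20. In Cdc25a the 2 E2F matches overlap each other on opposite strands, and Cdk6 held none of the 3 motifs in this window. A promoter was at hand for 41 of the 52 members. TTTGAA stood in 11 of 16 promoters of the G2 and mitosis genes (68.8%), in 1 of 9 of the G1/S regulators, in 1 of 11 of the replication genes, in 1 of 5 of the inhibitors and in 20.2% of all promoters in the table. CCAAT stood in 81.2% of the mitotic promoters and in 41.1% of all promoters. The pair of CHR and CCAAT was held by 68.8% of the mitotic promoters and by 7.97% of all. E2F letters were most frequent among the replication genes, with 8 of 11 promoters (72.7%) against 10.9% of all promoters and 3 of 16 of the mitotic ones. A match is a description of the letters and not a measured binding site.

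The central question of the design was which islet genes differ when leptin is missing, with and without PPARγ2. In ob/ob vs. WT islets, 4 of 21 genes of G2 and mitosis rose (Mki67, Bub1b, Plk1 and Cdc20) and 0 fell, beside 6.48% and 7.12% of all genes. The D-type cyclin kinase Cdk6, the phosphatase Cdc25a and the ribonucleotide reductase subunit Rrm2 fell. Among the inhibitors Cdkn2c (p18) and Cdkn1b (p27) rose and Cdkn1c (p57) fell. In POKO vs. WT islets 18 of the 21 had a higher mean, but 0 members passed the test. All fold changes are differences of mean log2 signal between 3 and 3 arrays from limma, with Benjamini-Hochberg adjustment over the 41174 probes, and a gene is called changed at an adjusted p of at most 0.05. In islet RNA, fewer cells of a type and less RNA per cell cannot be told apart.

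Of the 52 members, 12 were called in ob/ob vs. WT, 8 higher and 4 lower, where 6.48% of all 17306 genes were called higher and 7.12% lower. When a log2 difference of 1 or more in either direction was also required, 6 were called, 4 higher and 2 lower, against 4.51% and 2.17% of all genes. By role, 4 genes of G2 and mitosis were called higher and 0 lower, 1 G1/S regulator higher and 2 lower, 1 replication gene in each direction, and 2 inhibitors higher and 1 lower. Members whose 3 ob/ob arrays were all above the 3 WT arrays numbered 20 and members with all of them below numbered 8, where 13.9% of all genes were wholly higher and 25.3% wholly lower. Of these, 12 of the 21 mitotic genes were wholly higher and 0 wholly lower. The median log2 difference was 0.73 over the G2 and mitosis genes, 0.31 over the G1/S regulators, -0.24 over the replication genes and -0.10 over the inhibitors, beside -0.06 over all genes. Within the 3 slides the difference of ob/ob from WT was 2.25, 2.23 and 0.96 for Mki67. With the slide as a block 7 were called, 3 higher and 4 lower, a fit on only the 6 arrays compared called 0, and scaling each array by its 75th percentile instead gave 10 higher and 3 lower. The count of 12 rested on single arrays, since without WT 2 it was 0, without WT 1, ob/ob 2 or ob/ob 3 it was 1 (Cdkn1c, Bub1b and Mki67 in that order), without POKO 1, 2 or 3 it was 6, 3 and 4, and without WT 3 it was 24. Without the lymphocyte-rich array PPARγ2KO 2 it was 9. The median of the mitotic genes stayed between 0.65 and 0.87 with any 1 array left out. With normexp background correction, which adds an offset that shrinks the differences of dim genes, it was 0.12.

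**Figure D1:**
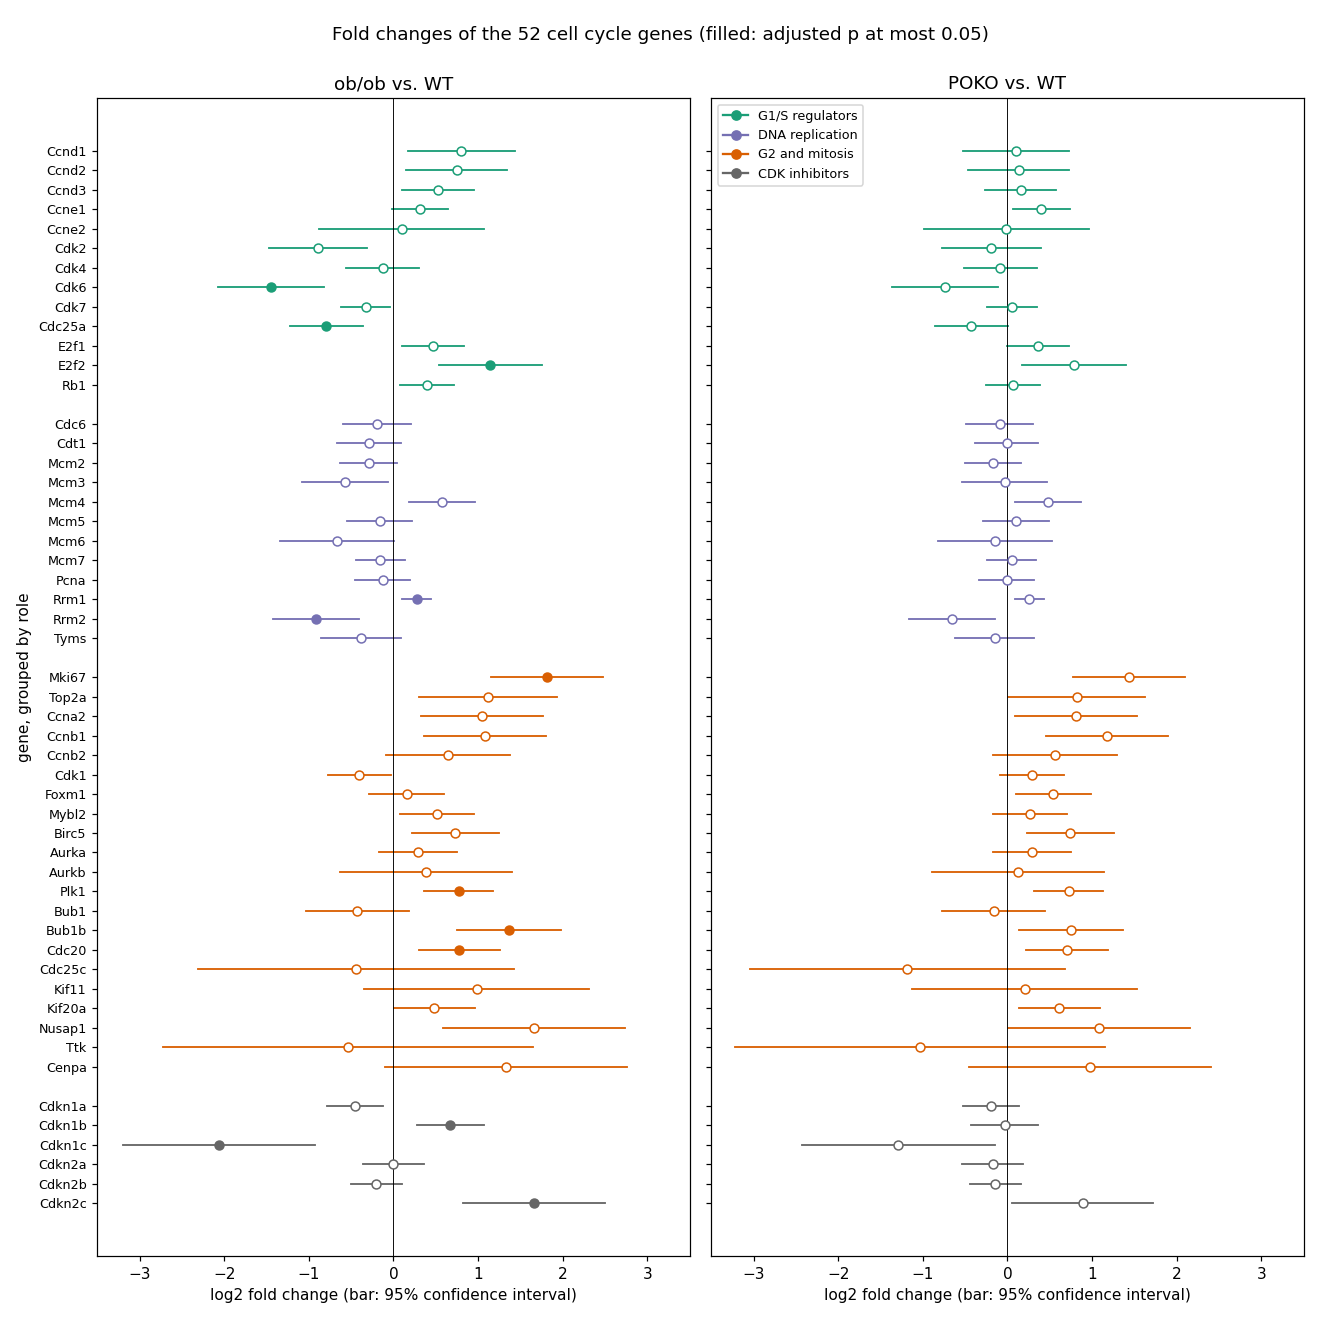
Log2 difference from WT (x axis) of the 52 cell cycle genes (rows, grouped by role) in ob/ob islets (left) and in POKO islets (right), as points with 95% confidence intervals from the limma fit on 3 arrays a genotype, filled where the adjusted p was at most 0.05. The left panel holds 12 filled points, 4 of them mitotic genes right of 0 and none of them mitotic genes left of 0, and the right panel holds 0.

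Among the genes of G2 and mitosis, Mki67 (NM_001081117) encodes the Ki-67 protein, which coats mitotic chromosomes and is the common marker of dividing cells. Mki67 read 5.75, 5.77 and 6.73 (log2 signal) in WT, 6.51, 6.74 and 6.82 in PPARγ2KO, 8.0, 7.998 and 7.68 in ob/ob and 7.99, 7.52 and 7.06 in POKO islets. The ob/ob arrays lay wholly above the WT arrays, and the POKO arrays also lay wholly above WT, while PPARγ2KO overlapped WT. The log2 difference was 1.81 ± 0.30 (SE, 95% interval 1.15 to 2.48, adjusted p = 0.018) in ob/ob vs. WT, 1.44 ± 0.30 (SE, adjusted p = 0.0844) in POKO vs. WT and 0.61 ± 0.30 (SE, adjusted p = 0.563) in PPARγ2KO vs. WT. With all 6 leptin-deficient arrays against all 6 lean arrays (obese vs. lean), Mki67 was 1.32 ± 0.21 (SE, adjusted p = 0.0167) and the 2 sets did not overlap. The other probe of Mki67 gave 1.75 in ob/ob vs. WT (adjusted p = 0.0165) and 1.38 in obese vs. lean (adjusted p = 0.0134).

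Bub1b (NM_009773) encodes BubR1, a kinase-like protein of the spindle checkpoint that restrains the anaphase-promoting complex. The Bub1b signals (log2) were 3.76, 3.68 and 3.89 in WT, 4.31, 3.99 and 4.13 in PPARγ2KO, 5.16, 4.62 and 5.65 in ob/ob and 5.02, 4.16 and 4.41 in POKO islets. All ob/ob arrays were above all WT arrays and so were all POKO arrays, but the gene was well above background on 0 WT arrays, 2 PPARγ2KO arrays and all ob/ob and POKO arrays. Its signal in ob/ob was therefore at least 2.32-fold that of WT, with a fitted log2 difference of 1.36 ± 0.27 (SE, adjusted p = 0.0263), and in POKO at least 1.52-fold with an adjusted p of 0.214. In obese vs. lean it was 0.88 ± 0.19 (SE, adjusted p = 0.0319).

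Plk1 (NM_011121) encodes polo-like kinase 1, which matures centrosomes and activates the cyclin B kinase at the entry into mitosis. WT islets gave Plk1 log2 signals of 6.01, 6.28 and 6.44, PPARγ2KO islets 6.63, 6.82 and 6.73, ob/ob islets 6.99, 7.13 and 6.94 and POKO islets 7.38, 6.89 and 6.64. Both leptin-deficient genotypes lay wholly above WT, and 1 POKO array lay below 2 of the PPARγ2KO arrays. Its log2 difference was 0.77 ± 0.18 (SE, 95% interval 0.36 to 1.18, adjusted p = 0.0348) in ob/ob vs. WT, 0.72 ± 0.18 (SE, adjusted p = 0.117) in POKO vs. WT and 0.51 ± 0.13 (SE, adjusted p = 0.0429) in obese vs. lean. Cdc20 (NM_023223) encodes the activator of the anaphase-promoting complex. The log2 signal of Cdc20 was 6.84, 6.98 and 7.46 on the WT arrays, 7.31, 7.74 and 7.64 in PPARγ2KO, 7.93, 8.0 and 7.68 in ob/ob and 8.13, 7.80 and 7.46 in POKO islets. The ob/ob arrays were all above the WT arrays, whereas the POKO array 3 equalled the highest WT array to 2 decimals. Cdc20 rose by 0.78 ± 0.21 (SE, adjusted p = 0.0481) in ob/ob vs. WT, and its difference was 0.70 ± 0.21 (SE, adjusted p = 0.156) in POKO vs. WT and 0.51 ± 0.15 (SE, adjusted p = 0.065) in obese vs. lean.

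**Figure D2:**
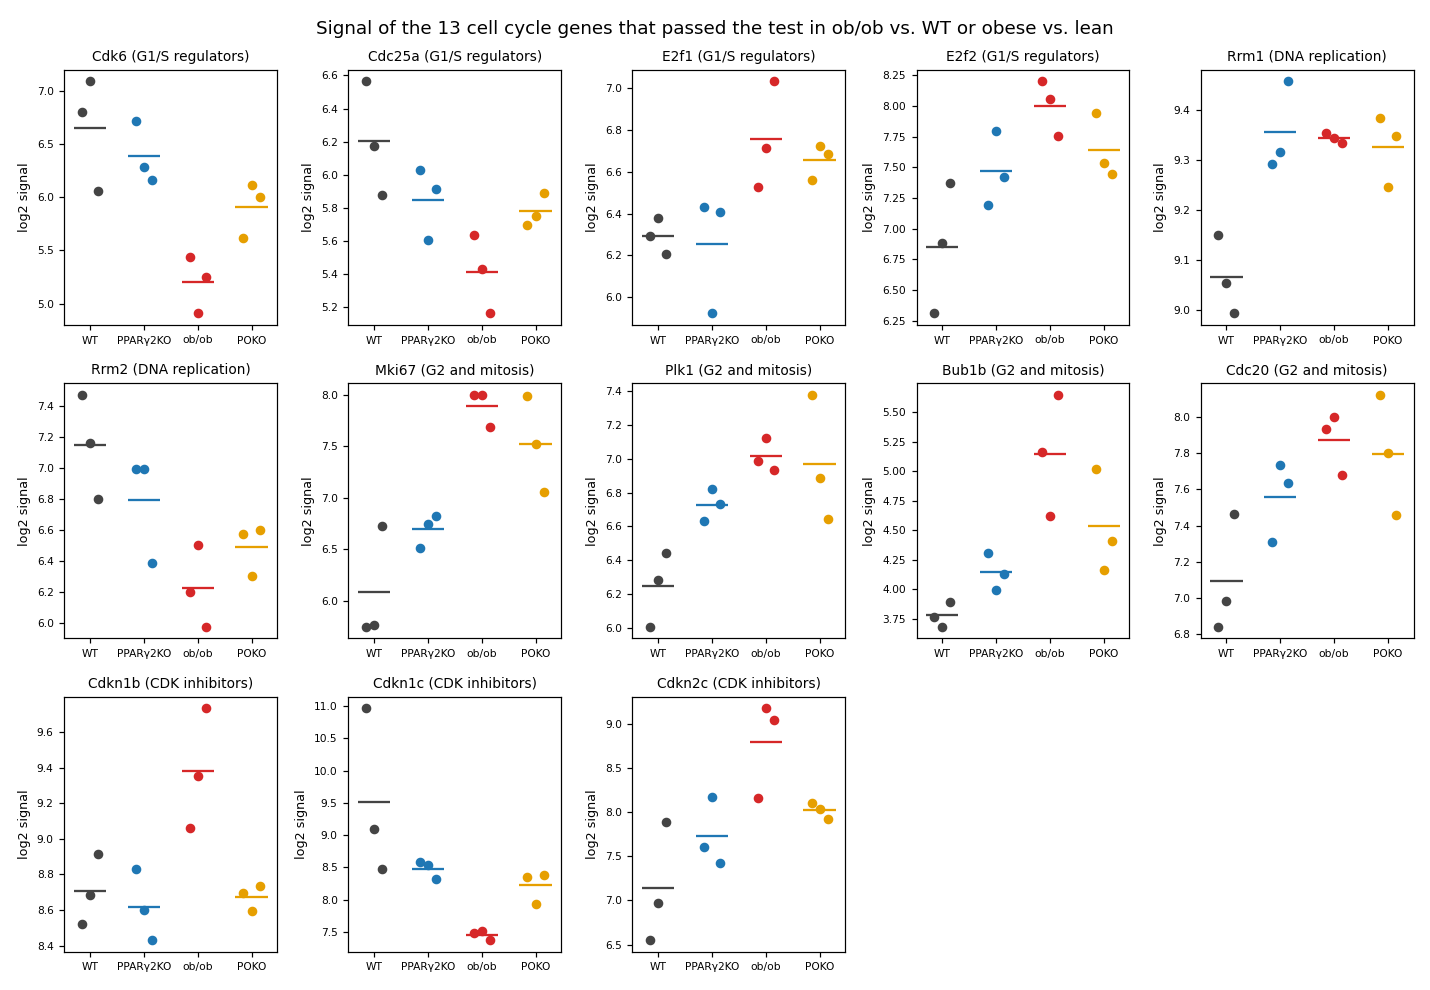
Log2 signal (y axis) of the 13 members called in at least 1 comparison, with 1 panel per gene, the 4 genotypes on the x axis, a point for each of the 3 arrays and a line at the mean. In the Mki67 panel the 6 leptin-deficient arrays lie at 7.06 to 8.0 and the 6 lean arrays at 5.75 to 6.82.

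Ccna2 and Ccnb1 did not pass the test in any comparison with their brightest probes. Ccna2 encodes cyclin A2, which acts from S phase to the start of mitosis. Ccna2 read 4.74, 5.02 and 5.95 (log2 signal) in WT, 5.64, 5.79 and 5.90 in PPARγ2KO, 6.20, 6.44 and 6.20 in ob/ob and 6.62, 5.80 and 5.72 in POKO islets. In ob/ob and WT the arrays did not overlap, and the log2 difference was 1.05 ± 0.32 (SE, adjusted p = 0.0633), beside 0.81 ± 0.32 (SE, adjusted p = 0.249) in POKO vs. WT. Ccnb1 encodes cyclin B1, the partner of CDK1. The Ccnb1 signals (log2) were 3.40, 3.67 and 4.15 in WT, 4.89, 4.69 and 4.42 in PPARγ2KO, 4.82, 5.22 and 4.41 in ob/ob and 5.56, 4.70 and 4.48 in POKO islets. It was well above background on only 1 WT array, and every array of the other genotypes lay above every WT array. The difference was 1.08 ± 0.32 (SE, adjusted p = 0.0586) in ob/ob, 1.18 ± 0.32 (SE, adjusted p = 0.127) in POKO and 0.93 ± 0.32 (SE, adjusted p = 0.488) in PPARγ2KO islets. A dimmer probe of Ccnb1, above background on 2 of 12 arrays, gave 1.88 in ob/ob vs. WT with an adjusted p of 0.0336.

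Birc5 encodes survivin, a subunit of the chromosomal passenger complex that also restrains cell death. WT islets gave Birc5 log2 signals of 6.66, 6.79 and 6.66, PPARγ2KO islets 6.99, 7.55 and 7.26, ob/ob islets 7.68, 7.51 and 7.12 and POKO islets 7.88, 7.41 and 7.04. All arrays of the other 3 genotypes lay above all WT arrays, with log2 differences of 0.73 ± 0.23 (SE, adjusted p = 0.0667) in ob/ob, 0.74 ± 0.23 (SE, adjusted p = 0.161) in POKO and 0.56 ± 0.23 (SE, adjusted p = 0.513) in PPARγ2KO islets. Nusap1 encodes a protein that bundles spindle microtubules. The log2 signal of Nusap1 was 2.55, 3.68 and 4.15 on the WT arrays, 4.36, 4.86 and 3.78 in PPARγ2KO, 4.93, 5.34 and 5.10 in ob/ob and 5.37, 4.36 and 3.90 in POKO islets. It was well above background on 1 of the WT arrays and on all arrays of the other genotypes, and the ob/ob arrays lay above WT, with a difference of 1.66 ± 0.48 (SE, adjusted p = 0.0544) in ob/ob vs. WT and 0.94 ± 0.34 (SE, adjusted p = 0.107) in obese vs. lean. Cdk1 encodes the kinase of mitotic entry itself. Cdk1 read 5.82, 6.03 and 5.30 (log2 signal) in WT, 5.72, 5.66 and 5.63 in PPARγ2KO, 5.24, 5.36 and 5.34 in ob/ob and 6.10, 5.82 and 6.11 in POKO islets. In contrast to the cyclins, its ob/ob arrays lay within or below the WT range and all below the POKO arrays, with differences of -0.40 ± 0.17 (SE, adjusted p = 0.136) in ob/ob vs. WT, 0.29 ± 0.17 (SE, adjusted p = 0.425) in POKO vs. WT and 0.70 ± 0.17 (SE, 95% interval 0.32 to 1.07, adjusted p = 0.531) in POKO vs. ob/ob.

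Of all 21 mitotic genes, 17 had a higher mean in ob/ob than in WT islets, 18 in POKO than in WT and 15 in PPARγ2KO than in WT, beside 43.9%, 40.8% and 46.8% of all genes. The 4 with a lower mean in ob/ob included Cdk1 and Bub1, a checkpoint kinase whose brightest probe differed by -0.43 ± 0.27 (SE, adjusted p = 0.313) while a dimmer probe, above background on 3 of 12 arrays, differed by 2.24 with an adjusted p of 0.0248, so that the probes of Bub1 disagree in direction and call. The mitotic promoters with and without TTTGAA had median log2 differences in ob/ob vs. WT of 0.78 over 11 genes and 0.73 over 5 genes. All 4 called mitotic genes were among the 11 with the motif. None of the mitotic members not named so far was called in ob/ob vs. WT. Top2a, the topoisomerase that untangles chromosomes, was well above background on 2 WT arrays and differed by 1.12 ± 0.36 (SE, adjusted p = 0.0722). Cyclin B2 (Ccnb2), the transcription factors Mybl2 and Foxm1, the kinesin Kif20a and the kinase Aurka were above background on all arrays, with differences of 0.16 to 0.64. Cenpa, the histone of the centromere, was above background on 0 WT and 3 ob/ob arrays, which gives at least 1.203-fold. The kinesin Kif11 was above background on 0 WT and 2 ob/ob arrays, and the phosphatase Cdc25c on 0 of both. Ttk, a checkpoint kinase, was above background on WT 2 alone, and its difference of -0.54 was 0.82 without that array. Aurkb, of the chromosomal passenger complex, was well above background on 0 of 12 arrays, and so was Cdkn2a, whereas 39 of the 52 members were on all 12.

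A further list of 44 mitotic genes with probes was written from pathway knowledge, but with earlier results of these data known, so it is no independent check. It gave 8 called higher and 0 lower in ob/ob vs. WT, where 6.48% of all genes were called higher and 7.12% lower. The median log2 difference was 0.49. In obese vs. lean 6 of the 44 were called, all higher, beside 5.64% of all genes, with a median of 0.31. The 3 with the smallest p in obese vs. lean were Cenpe, the kinetochore motor, with 0.66 (adjusted p = 0.0267), Smc4, a condensin subunit, with 0.60 (adjusted p = 0.0296), and Kif23, a motor of the central spindle, with 0.95 (adjusted p = 0.0321). Of 39 promoters of that list 27 held TTTGAA (69.2%).

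Among the G1/S regulators, Cdk6 (NM_009873), a kinase partner of the D-type cyclins, had the largest fall. The Cdk6 signals (log2) were 6.80, 7.09 and 6.06 in WT, 6.72, 6.28 and 6.16 in PPARγ2KO, 5.44, 4.91 and 5.25 in ob/ob and 5.61, 6.12 and 6.01 in POKO islets. The ob/ob arrays lay wholly below both WT and PPARγ2KO arrays, and 1 of the POKO arrays reached the lower end of the WT range. The log2 difference was -1.45 ± 0.28 (SE, 95% interval -2.07 to -0.83, adjusted p = 0.0243) in ob/ob vs. WT, -0.74 ± 0.28 (SE, adjusted p = 0.23) in POKO vs. WT and 0.71 ± 0.28 (SE, adjusted p = 0.531) in POKO vs. ob/ob. In obese vs. lean Cdk6 fell by 0.96 on the log2 scale (adjusted p = 0.0278). A second Cdk6 probe was above background on 0 of 12 arrays.

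Cdc25a (NM_007658) encodes the phosphatase that removes the inhibitory phosphate from CDK2. WT islets gave Cdc25a log2 signals of 6.57, 6.18 and 5.88, PPARγ2KO islets 6.03, 5.60 and 5.91, ob/ob islets 5.64, 5.43 and 5.16 and POKO islets 5.70, 5.75 and 5.89. The ob/ob arrays lay wholly below the WT arrays and the other 2 genotypes reached into the WT range. The difference was -0.79 ± 0.19 (SE, adjusted p = 0.0362) in ob/ob vs. WT, -0.43 ± 0.19 (SE, adjusted p = 0.309) in POKO vs. WT and -0.43 ± 0.14 (SE, adjusted p = 0.0745) in obese vs. lean.

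E2f2 (NM_177733) and E2f1 (NM_007891) encode activating E2F factors. The log2 signal of E2f2 was 6.31, 6.88 and 7.37 on the WT arrays, 7.20, 7.80 and 7.42 in PPARγ2KO, 8.20, 8.05 and 7.75 in ob/ob and 7.94, 7.54 and 7.44 in POKO islets. All ob/ob and POKO arrays of E2f2 were above all WT arrays, and the PPARγ2KO arrays overlapped both WT and POKO. E2f2 differed by 1.15 ± 0.27 (SE, 95% interval 0.53 to 1.76, adjusted p = 0.0353) in ob/ob vs. WT, 0.78 ± 0.27 (SE, adjusted p = 0.199) in POKO vs. WT and 0.66 ± 0.19 (SE, adjusted p = 0.0618) in obese vs. lean. E2f1 read 6.29, 6.38 and 6.21 (log2 signal) in WT, 6.43, 5.92 and 6.41 in PPARγ2KO, 6.53, 6.71 and 7.03 in ob/ob and 6.56, 6.72 and 6.69 in POKO islets. For E2f1 the 6 leptin-deficient arrays were all above the 6 lean arrays. In obese vs. lean E2f1 rose by 0.43 ± 0.11 (SE, adjusted p = 0.048), and in ob/ob vs. WT alone it differed by 0.46 ± 0.16 (SE, adjusted p = 0.089). Its other probe rose by 0.50 in obese vs. lean with an adjusted p of 0.0388.

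The D-type cyclins did not pass the test. Ccnd2 encodes the cyclin D2 that supports beta cell growth after birth. The Ccnd2 signals (log2) were 12.29, 12.66 and 13.24 in WT, 12.53, 12.46 and 13.23 in PPARγ2KO, 13.22, 13.60 and 13.63 in ob/ob and 12.91, 12.82 and 12.86 in POKO islets. The highest WT array reached into the ob/ob range, and the POKO arrays lay inside the WT range, with differences of 0.75 ± 0.26 (SE, adjusted p = 0.091) in ob/ob vs. WT, 0.13 ± 0.26 (SE, adjusted p = 0.828) in POKO vs. WT and 0.44 ± 0.19 (SE, adjusted p = 0.163) in obese vs. lean. WT islets gave Ccnd1 log2 signals of 7.94, 8.23 and 8.78, PPARγ2KO islets 8.39, 9.12 and 8.39, ob/ob islets 8.86, 9.31 and 9.19 and POKO islets 8.19, 8.79 and 8.27. For Ccnd1, cyclin D1, the ob/ob arrays were all above WT and all above POKO, and the difference was 0.80 ± 0.28 (SE, adjusted p = 0.0875) in ob/ob vs. WT and -0.70 ± 0.28 (SE, 95% interval -1.33 to -0.07, adjusted p = 0.531) in POKO vs. ob/ob. The log2 signal of Ccnd3 was 9.18, 9.68 and 9.74 on the WT arrays, 9.96, 9.76 and 9.70 in PPARγ2KO, 9.95, 9.80 and 10.44 in ob/ob and 9.66, 9.72 and 9.70 in POKO islets. For Ccnd3, cyclin D3, the ob/ob arrays lay above WT and the POKO arrays inside the WT range, with differences of 0.53 ± 0.19 (SE, adjusted p = 0.0932) and 0.16 ± 0.19 (SE, adjusted p = 0.699) from WT.

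Cdk7 encodes the kinase that activates the other CDKs. Cdk7 read 8.80, 8.74 and 8.26 (log2 signal) in WT, 8.46, 8.48 and 8.47 in PPARγ2KO, 8.20, 8.31 and 8.30 in ob/ob and 8.70, 8.56 and 8.69 in POKO islets. WT and ob/ob overlapped through WT 3, and POKO lay wholly above ob/ob, with differences of -0.33 ± 0.13 (SE, adjusted p = 0.122) in ob/ob vs. WT and 0.38 ± 0.13 (SE, adjusted p = 0.531) in POKO vs. ob/ob. A second Cdk7 probe, above background on all 12 arrays, fell by 1.19 in ob/ob vs. WT (adjusted p = 0.0186) and by 0.94 in obese vs. lean (adjusted p = 0.015), so that the probes of Cdk7 share a direction and differ in call. For Ccne1, cyclin E1, the probes differ in direction, with 0.31 for the brighter and -0.47 for the other (adjusted p = 0.125) in ob/ob vs. WT. The remaining G1/S regulators Rb1 and Cdk4 had differences of 0.40 and -0.13 in ob/ob vs. WT and were not called, and Ccne2, cyclin E2, was above background on 0 WT and 2 ob/ob arrays. Over all 13 G1/S regulators 8 had a higher and 5 a lower mean in ob/ob than in WT islets. Of 21 further G1/S genes with probes, 1 was called higher and 3 lower in ob/ob vs. WT, beside 6.48% and 7.12% of all genes. In obese vs. lean, where 5.64% of all genes were called higher and 5.37% lower, 1 was called higher and 2 lower. These 3 were Ezh2, a histone methyltransferase and E2F target, with -0.55 (adjusted p = 0.0265), Cdkn2d, the INK4 inhibitor p19, with 1.09 (adjusted p = 0.0333), and Mnat1, a partner of CDK7, with -0.36 (adjusted p = 0.0474).

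**Figure D3:**
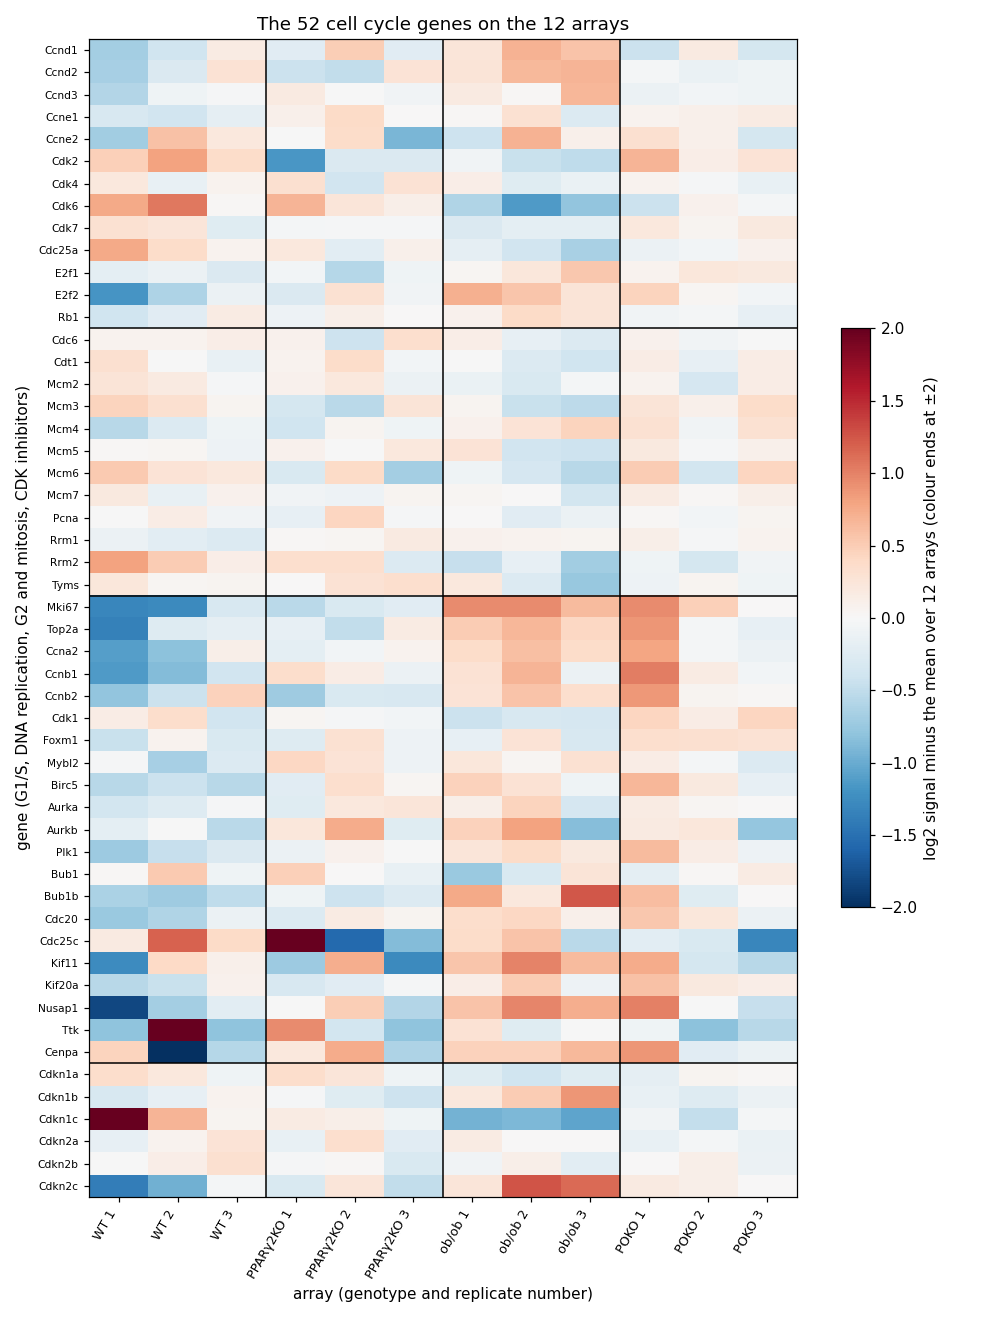
Log2 signal of the 52 members (rows, by role) on the 12 arrays (columns, by genotype), each gene centred on its mean over the 12 arrays, with colours that end at 2 on either side of 0. In the block of G2 and mitosis genes the WT columns are mostly below and the ob/ob columns mostly above the gene means, and Cdk6 runs the other way.

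Among the replication genes both subunits of ribonucleotide reductase, which makes the deoxynucleotides, were called, in opposite directions. Of 20 alternatives Rrm1 kept its call in 4 and Rrm2 in 11. Rrm2 (NM_009104) encodes the small subunit, whose amount follows S phase. The Rrm2 signals (log2) were 7.47, 7.17 and 6.80 in WT, 6.997, 6.997 and 6.39 in PPARγ2KO, 6.21, 6.50 and 5.98 in ob/ob and 6.57, 6.31 and 6.60 in POKO islets. The ob/ob and POKO arrays all lay below all WT arrays, and PPARγ2KO spanned the space between. Rrm2 differed by -0.92 ± 0.23 (SE, 95% interval -1.43 to -0.41, adjusted p = 0.0374) in ob/ob vs. WT, -0.65 ± 0.23 (SE, adjusted p = 0.197) in POKO vs. WT and -0.61 ± 0.16 (SE, adjusted p = 0.0465) in obese vs. lean. Rrm1 (NM_009103) encodes the large subunit. WT islets gave Rrm1 log2 signals of 9.15, 9.05 and 8.99, PPARγ2KO islets 9.29, 9.32 and 9.46, ob/ob islets 9.35, 9.34 and 9.33 and POKO islets 9.38, 9.25 and 9.35. Every array of the other 3 genotypes was above every WT array, and the differences from WT were 0.28 ± 0.08 (SE, adjusted p = 0.048) in ob/ob, 0.26 ± 0.08 (SE, adjusted p = 0.146) in POKO and 0.29 ± 0.08 (SE, adjusted p = 0.43) in PPARγ2KO islets.

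Mcm4 encodes a subunit of the replicative helicase. The log2 signal of Mcm4 was 9.42, 9.68 and 9.88 on the WT arrays, 9.56, 10.02 and 9.88 in PPARγ2KO, 10.05, 10.24 and 10.41 in ob/ob and 10.26, 9.89 and 10.26 in POKO islets. All ob/ob and POKO arrays were above all WT arrays, with differences of 0.57 ± 0.17 (SE, adjusted p = 0.0624) in ob/ob vs. WT and 0.45 ± 0.12 (SE, adjusted p = 0.0531) in obese vs. lean. Other helicase subunits had lower means in ob/ob islets, with -0.66 ± 0.30 (SE, adjusted p = 0.167) for Mcm6 and -0.58 ± 0.23 (SE, adjusted p = 0.117) for Mcm3. Tyms encodes thymidylate synthase. Tyms read 8.86, 8.68 and 8.69 (log2 signal) in WT, 8.64, 8.92 and 8.98 in PPARγ2KO, 8.84, 8.35 and 7.88 in ob/ob and 8.53, 8.69 and 8.55 in POKO islets. The ob/ob arrays had the widest range and overlapped WT, with differences of -0.38 ± 0.21 (SE, adjusted p = 0.244) in ob/ob vs. WT and -0.32 ± 0.15 (SE, adjusted p = 0.192) in obese vs. lean. The remaining replication members, the origin factors Cdc6 and Cdt1, the helicase subunits Mcm2, Mcm5 and Mcm7 and the sliding clamp Pcna, had differences of -0.29 to -0.13 in ob/ob vs. WT, and none was called. Of the 12 replication genes 10 had a lower mean in ob/ob than in WT islets, and 10 a lower mean in obese vs. lean, where the median was -0.10 beside -0.05 over all genes. Of 25 further replication genes, 2 were called higher and 2 lower in ob/ob vs. WT, beside 6.48% and 7.12% of all genes. In obese vs. lean, where 5.64% of all genes were called higher and 5.37% lower, 1 was called higher and 2 lower. These were Mcm10, a factor of replication initiation, with 0.57 (adjusted p = 0.0167), Rfc5, a subunit of the clamp loader, with -0.35 (adjusted p = 0.034), and Chaf1b, a histone chaperone, with -0.54 (adjusted p = 0.0369).

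The CDK inhibitors did not move as 1 group. Cdkn2c (NM_007671) encodes p18, which binds CDK4 and CDK6. The Cdkn2c signals (log2) were 6.55, 6.97 and 7.89 in WT, 7.61, 8.17 and 7.43 in PPARγ2KO, 8.16, 9.18 and 9.06 in ob/ob and 8.10, 8.04 and 7.93 in POKO islets. The ob/ob and POKO arrays were all above the WT arrays, with PPARγ2KO across the gap. Its difference was 1.66 ± 0.37 (SE, 95% interval 0.83 to 2.50, adjusted p = 0.0311) in ob/ob vs. WT, 0.89 ± 0.37 (SE, adjusted p = 0.278) in POKO vs. WT and 0.98 ± 0.26 (SE, adjusted p = 0.0502) in obese vs. lean. Cdkn1b (NM_009875) encodes p27, which holds CDK2 in resting cells. WT islets gave Cdkn1b log2 signals of 8.52, 8.69 and 8.92, PPARγ2KO islets 8.83, 8.60 and 8.43, ob/ob islets 9.06, 9.36 and 9.73 and POKO islets 8.70, 8.59 and 8.74. The ob/ob arrays stood above the arrays of each of the other 3 genotypes, with differences of 0.67 ± 0.18 (SE, adjusted p = 0.0431) in ob/ob vs. WT, -0.03 ± 0.18 (SE, adjusted p = 0.942) in POKO vs. WT and -0.71 ± 0.18 (SE, 95% interval -1.11 to -0.31, adjusted p = 0.531) in POKO vs. ob/ob.

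Cdkn1c (NM_009876) encodes p57, an imprinted inhibitor present in islets. The log2 signal of Cdkn1c was 10.97, 9.10 and 8.48 on the WT arrays, 8.59, 8.53 and 8.33 in PPARγ2KO, 7.48, 7.52 and 7.37 in ob/ob and 8.35, 7.94 and 8.39 in POKO islets. Array WT 1 stood far above the other 11, the ob/ob arrays lay wholly below all others, and the POKO arrays lay below all WT arrays. Cdkn1c differed by -2.06 ± 0.51 (SE, 95% interval -3.20 to -0.92, adjusted p = 0.0373) in ob/ob vs. WT, and without WT 1 by -1.34 (adjusted p = 0.0356). It differed by -1.29 ± 0.51 (SE, adjusted p = 0.247) in POKO vs. WT and by -1.16 ± 0.36 (SE, adjusted p = 0.0718) in obese vs. lean, and without WT 1 these were -0.57 (adjusted p = 0.28) and -0.80 (adjusted p = 0.0366). Cdkn1a read 12.61, 12.46 and 12.17 (log2 signal) in WT, 12.60, 12.50 and 12.16 in PPARγ2KO, 12.02, 11.85 and 12.01 in ob/ob and 12.07, 12.30 and 12.28 in POKO islets. For Cdkn1a, p21, all ob/ob arrays were below all WT arrays, with -0.45 ± 0.15 (SE, adjusted p = 0.0736) in ob/ob vs. WT and -0.33 ± 0.10 (SE, adjusted p = 0.0775) in obese vs. lean. The Cdkn2b signals (log2) were 9.89, 10.03 and 10.23 in WT, 9.88, 9.93 and 9.60 in PPARγ2KO, 9.82, 10.02 and 9.69 in ob/ob and 9.91, 10.02 and 9.79 in POKO islets. The arrays of Cdkn2b, p15, overlapped between all genotypes, with -0.20 ± 0.13 (SE, adjusted p = 0.326) in ob/ob vs. WT. Cdkn2a, which encodes p16 and ARF and rises in ageing beta cells, read 1.26 to 1.83 on the log2 scale on the 12 arrays and was well above background on none.

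In POKO vs. WT 0 of the 52 members were called by limma, where 0.214% of all genes were. At an unadjusted p under 0.05 there were 19, 16 higher and 3 lower, where 17.2% of all genes were at that level, and 11 of them were among the 21 mitotic genes. The mitotic genes had a median log2 difference of 0.61, and 9 of them had all POKO arrays above all WT arrays, as had 12% of all genes. The member with the smallest adjusted p was Mki67. In PPARγ2KO vs. WT 0 members were called, as were 0% of all genes, and 8 had an unadjusted p under 0.05, 7 higher and 1 lower, beside 8.83% of all genes. There the mitotic genes had a median of 0.43.

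The step from ob/ob to POKO, which removes PPARγ2 from leptin-deficient mice, gave 0 called members beside 0% of all genes. An unadjusted p under 0.05 was reached by 9 members, 5 higher and 4 lower, against 11.8% of all genes. Higher in POKO were Cdk1, Cdk7, Cdk2, Cdk6 and Mcm3, and lower were Cdkn1b, Ccnd1, Ccnd2 and Rb1, which encodes the retinoblastoma protein, all with adjusted p of 0.531 to 0.532. The intervals of Mki67 (-1.04 to 0.29), Plk1 (-0.45 to 0.36) and Cdc20 (-0.56 to 0.41) held 0, so that differences of either sign within these bounds are possible. In POKO vs. PPARγ2KO, which removes leptin where PPARγ2 is absent in both, 0 members were called beside 0% of all genes, and 5 had an unadjusted p under 0.05 beside 12.9%. In ob/ob vs. PPARγ2KO 0 members were called beside 0.00578% of all genes, and 13 had an unadjusted p under 0.05, 8 higher and 5 lower, beside 25.1%.

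Obese vs. lean set the 6 leptin-deficient arrays against the 6 lean ones. By this comparison 6 members were called, with Mki67, Bub1b, Plk1 and E2f1 higher and Cdk6 and Rrm2 lower, where 5.64% of all genes were called higher and 5.37% lower. Scaling to the 75th percentile gave 9 higher and 1 lower. Without WT 3 it called 16, without WT 1, PPARγ2KO 2, ob/ob 2, POKO 2 or POKO 3 it called 2, and without WT 2, PPARγ2KO 1, ob/ob 3 or POKO 1 it called 1, and Mki67 was called each time. Mki67 and E2f1 were the 2 members whose 6 obese arrays were all higher, beside 2.17% of all genes, and 0 were wholly lower, beside 3.53%. The medians by role were 0.51 for G2 and mitosis, 0.15 for the G1/S regulators, -0.10 for replication and -0.05 for the inhibitors. Of the mitotic genes, 17 of 21 were higher, 11 of them at an unadjusted p under 0.05, where 43.6% of all genes were higher and 14.2% were higher at that p.

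Whether leptin deficiency differed in effect between islets with and without PPARγ2 was tested by the interaction, which called 0 members beside 0% of all genes. An unadjusted p under 0.05 was reached by 18 members, 8 higher and 10 lower, beside 16.1% of all genes. A value below 0 means a smaller difference between POKO and PPARγ2KO than between ob/ob and WT, and it was -0.98 ± 0.42 (SE, adjusted p = 0.343) for Mki67 and -1.38 ± 0.53 (SE, adjusted p = 0.31) for Cdkn2c. Above 0 were Cdkn1c with 1.80 ± 0.71 (SE, adjusted p = 0.318), which was 1.08 without WT 1, Mcm3 with 1.03 ± 0.32 (SE, adjusted p = 0.274) and Cdk1 with 0.74 ± 0.24 (SE, adjusted p = 0.275).

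Genes of other cell types also differed between the genotypes. The summed linear signal of the 21 mitotic genes was 984 to 1296 on the WT arrays, 1325 to 1492 in PPARγ2KO, 1588 to 1899.5 in ob/ob and 1402 to 2077 in POKO islets. In ob/ob vs. WT 6 of 8 T cell genes and 4 of 6 B cell genes were called higher, beside 6.48% of all genes. The other 2 T cell genes had a lower mean, with a log2 difference down to -1.48, and were not called. The summed signals of these lists ran from 437 to 464 and from 87.3 to 106 in WT against 1002 to 2765 and 1254 to 3809 in ob/ob islets. The T cell genes Cd2, Cd3g and Cd8a and the B cell genes Ms4a1 and Blk were well above background on 0 of 3 WT arrays. In POKO islets the sums were 611 to 1890 for T cells and 1147 to 3470 for B cells, with 0 genes of either list called, beside 0.214% of all genes. Of the endothelial genes 2 of 6 were called higher in ob/ob, with sums of 1608 to 3417 in WT, 2611 to 4394 in PPARγ2KO, 4433 to 5482 in ob/ob and 3735 to 4917 in POKO islets. Of the duct genes 3 of 6 were called lower in ob/ob, beside 7.12% of all genes, with sums of 81398 to 93871 in WT and 49065 to 73852 in ob/ob islets. The duct list went both ways, since 2 of the 6 had a higher mean, with a log2 difference up to 0.72, and were not called. Of the macrophage and dendritic cell genes 0 of 5 were called in ob/ob or POKO vs. WT. Their sums were 136 to 268 in WT, 165 to 423 in PPARγ2KO, 289 to 548 in ob/ob and 395 to 693 in POKO islets. In POKO islets 4 of the 5 lay wholly above WT, beside 12% of all genes, and the list had a median log2 difference of 1.51. In ob/ob vs. WT acinar genes were called in 0 of 8. Their mean log2 signal was 17.89 to 18.14 by array, and quantile normalization evens out the brightest ranks, so a difference could hardly show. Of 7 beta cell genes 1 was called there, the transcription factor Nkx6-1 with 1.09 (adjusted p = 0.0397), while 3 had a lower mean, down to -1.13. In POKO islets 0 of the 7 were called, beside 0.214% of all genes against WT and 0% against ob/ob. Their median was -0.48 against WT and -0.82 against ob/ob, where all 7 were lower. Mitotic and replication genes are active in dividing cells of any type, lymphocytes included, and the part of these other cells in the values of the members was not tested.

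**Figure D4:**
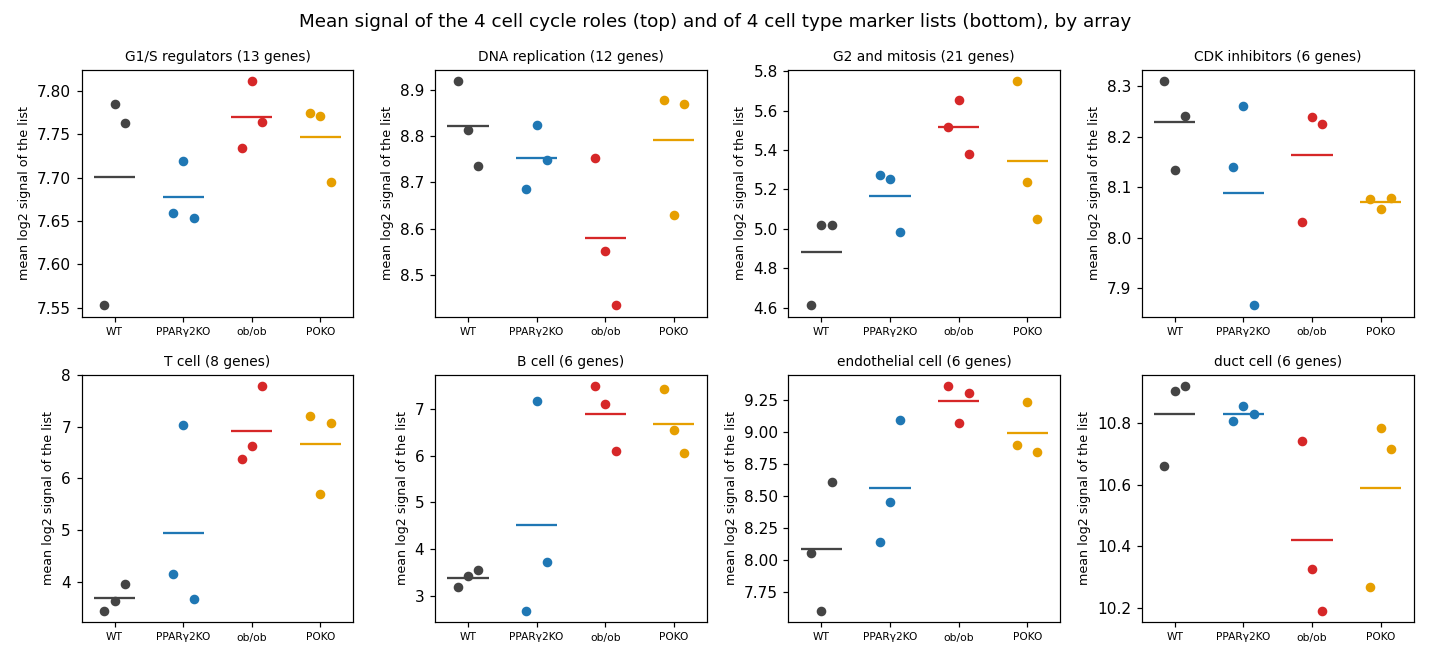
Mean log2 signal (y axis) over the genes of the 4 cell cycle roles and of T cell, B cell, endothelial and duct markers, with a point for each array in the 4 genotypes (x axis) and a line at the mean of 3 arrays. The G2 and mitosis, T cell and B cell panels have their lowest mean in WT, and array PPARγ2KO 2 is the highest of its genotype for T and B cell genes.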

How the data were processed

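Total RNA of 12 pools of mouse islets was hybridised to 1-colour Agilent 4x44K arrays, 1 pool to an array. The labels gave the genotype of each of the 12 arrays, 3 per genotype. Per the file headers, Agilent Feature Extraction 10.1.1.1 read the scanned images and gave the deposited processed signal, an intensity with the background subtracted and no normalization between arrays. The authors' series matrix holds normalized log2 values of the same arrays and served as an alternative.

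Of 45018 spots 1639 were controls. The processed signal was quantile normalized and log2 transformed. Over all arrays 919 outlier spots were dropped, 0 were saturated, and spots of a probe were averaged. Probes were named through RefSeq accessions (assembly GRCm38.p6), which gave 25097 of 41174 probes a symbol, and Ccnd1 through the study. A gene stands as its brightest probe, and the other probes of a gene are given where they differ in direction or call in ob/ob vs. WT. Second probes of Cdk1, Rb1 and Kif11 differed in direction there, with 0.05, -0.20 and -0.15. They were above background on 0, 0 and 2 of 12 arrays. A second Cdkn1b probe rose by 0.47 but was not called by limma (adjusted p = 0.15). Quantile normalization assumes a like distribution of signal on all arrays, and the number of arrays limits the precision.

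A limma 3.58.1 fit (lmFit and eBayes, R 4.3.3) with genotype as the factor on all 12 arrays gave the 6 pairwise comparisons, obese vs. lean and the interaction, with Benjamini-Hochberg adjustment over 41174 probes. The methods' block for the array could not be fitted, since an array holds 1 sample. Where no array of a group read a gene well above background, the fold is set against the lowest signal among probes that are well above background. Such a fold is a lower limit for the means and leaves out the spread between arrays. The members and gene lists were chosen with earlier results of these data known. Values are given in full for members called in any comparison, members that the study names, all CDK inhibitors and, in each role, the 3 largest differences in obese vs. lean. For further lists the 3 smallest p are named.

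Alternatives were scaling to the 75th percentile, normexp with an offset of 50 (on the median signal, since the mean signal is not among the columns used here), a filter on dim probes, the slide as a block, array weights, the authors' values, a fit of the compared groups alone, the mean of all probes, a limit on the fold, and each array left out. The fit was tested on simulated data. Figures were drawn with matplotlib 3.10.9.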

Additional observations from a re-analysis of the deposited data

Results flagged for a closer look

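For Cdk2, the kinase that starts DNA replication, leptin deficiency and PPARγ2 loss had differences of opposite sign in the 2 backgrounds. The difference of leptin-deficient from lean islets was -0.89 on the log2 scale with PPARγ2 and 0.94 without it, and the difference of PPARγ2-null from intact islets was -1.13 in lean and 0.70 in leptin-deficient mice. The interaction was 1.83 with an adjusted p of 0.213 from limma, which misses the threshold. It was noticed because the arrays of the groups compared did not overlap, with opposite signs in the 2 backgrounds. Cdk2 read 4.09, 4.40 and 3.98 in WT, 2.44, 3.32 and 3.31 in PPARγ2KO, 3.54, 3.16 and 3.10 in ob/ob and 4.29, 3.73 and 3.88 in POKO islets. It was well above background on 0 WT, 0 PPARγ2KO, 1 ob/ob and 3 POKO arrays, so that most of these values lie in the background of the array.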

How the results depend on the processing

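Of 474 recomputed fold changes of single members in a comparison, 298 stayed on their side of the threshold, 160 lost the call, 16 gained it and 0 changed sign. Of 20 alternatives in ob/ob vs. WT the call was kept in 16 for Mki67 and Bub1b, 14 for Cdk6, 12 for Plk1 and Cdkn2c, 11 for Cdc25a, E2f2, Rrm2 and Cdkn1c, 7 for Cdkn1b, 6 for Cdc20 and 4 for Rrm1. Of 19 in obese vs. lean it was kept in 19 for Mki67, 11 for Bub1b, 10 for Cdk6, 8 for E2f1 and Rrm2 and 7 for Plk1. In ob/ob vs. WT the count of 12 called members became 7 with the replicate block, 28 with array weights, 0 with only the groups compared and 6 with the limit on the fold, and it ran from 0 to 24 when 1 array was left out. In obese vs. lean the count of 6 became 10 with scaling to the 75th percentile, 12 with the filter on dim probes and 18 with array weights, and ran from 1 to 16 when 1 array was left out. The other comparisons had 0 calls. POKO vs. WT had 1 with the filter on dim probes, 7 with array weights and 0 to 1 with an array left out. Array weights gave 2 in POKO vs. ob/ob and 3 in ob/ob vs. PPARγ2KO, and leaving out an array gave 0 to 3 in ob/ob vs. PPARγ2KO and 0 to 2 in the interaction. The filter tests fewer genes, and the fits with an array left out or of only the groups compared use fewer samples. For the others the cause was not tested.

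The replicate number is the slide. The deviations of arrays with the same number correlated at -0.13 to 0.18, so that the numbers do not pair the samples, and the replicate block took the count in ob/ob vs. WT to 7 and in obese vs. lean to 5. Scaling to the 75th percentile moved the median over all probes from -0.08 to -0.19 in ob/ob vs. WT. Dim genes, such as Bub1b, Nusap1 and Ccnb1 in WT, have values near the background of the array, which limits the size of their differences.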
